A study of Homo sapiens with 6 samples.

Results

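The genes described here are 9 transcriptional targets of p53, namely MDM2, CDKN1A, GADD45A, GADD45B, PMAIP1, BBC3, BAX, TP53INP1 and SESN1, in HEK293T cells. Each was taken as the non-control probe sets that the platform annotation assigns to its symbol, older symbols included. Every gene had 1 such probe set, so 9 of the 29183 tested probe sets, and 9 of the 18417 gene symbols that these carry, are covered. The study compared cells that had received the plasmid pNTAP-2×flag-VRTN, which carries the full-length pig VRTN coding sequence, with cells given pNTAP-2×flag with no insert, called empty vector here. Total RNA was isolated 24 hours after transfection and hybridised to 6 Affymetrix Human Gene 1.0 ST arrays, 3 per plasmid, which the labels call biological replicates. They do not say what was replicated, so the p-values measure the spread between these samples, part of which may be technical. HEK293T is 1 human embryonic kidney line, both plasmids were tested in it, and it carries the SV40 large T antigen.

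p53 is a transcription factor that is held at a low level by the ubiquitin ligase MDM2 and is stabilised by DNA damage and other stress. It binds response elements made of a pair of decamer half-sites near its target genes, and MDM2 is itself such a target, which closes a feedback loop. The other targets arrest the cell cycle, repair DNA, start apoptosis through the mitochondria or limit oxidative stress. SV40 large T antigen binds p53 and blocks its activity as a transcription factor, and every cell compared here carries it. The data hold no line without large T antigen, and the antigen itself was not analysed here, so the levels below cannot be set against those of cells with free p53.

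The response element is shown first because p53 binds such elements near its target genes. The 9 genes were set by a list of symbols and not by this search. RefSeq promoter windows on GRCh38.p14 were taken for 7 of the 9 genes (12 windows). None was taken for GADD45A and TP53INP1, which does not mean that none exists, so a match in these genes was not tested. The 250 bases before each start were searched on both strands for the palindromic p53 consensus of 2 abutting decamers, with the core C and G of each decamer required. With at most 2 mismatches, 0.242% of 35116 windows of the same length held a match, and among the 7 genes searched only MDM2 did, in 2 overlapping windows. With at most 3 mismatches the share was 0.914%, and of the 7 genes SESN1 and PMAIP1 also had a match. Half-sites apart from each other were not searched for, and the limits were set with the MDM2 and SESN1 elements known from the literature. A match is a likeness of letters, not a measured binding site, and no match says only that these letters are not in this window. The 250 bases before the internal MDM2 start, the promoter through which p53 is known to act on MDM2, lie at chr12:68808767-68809016 on the plus strand and are printed below with the match in capitals. The SESN1 match lies at chr6:109009018-109009037 on the minus strand and the PMAIP1 match at chr18:59899811-59899830 on the plus strand, and each of these is given alone, in capitals throughout.
MDM2 internal promoter: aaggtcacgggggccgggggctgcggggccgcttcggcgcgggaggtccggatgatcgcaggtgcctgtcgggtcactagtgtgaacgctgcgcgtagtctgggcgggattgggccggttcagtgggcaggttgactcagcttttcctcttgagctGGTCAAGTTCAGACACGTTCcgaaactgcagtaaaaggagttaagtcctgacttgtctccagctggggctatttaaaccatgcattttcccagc
SESN1 match: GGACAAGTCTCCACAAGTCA
PMAIP1 match: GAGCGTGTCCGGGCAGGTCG

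The values are log2 signals from RMA, a method that forces the arrays to 1 common distribution, and a change common to most transcripts is therefore invisible. The median log2 signal of the tested probe sets was 6.43 to 6.47 in the 6 arrays. The human VRTN probe set was at 6.18 ± 0.10 (SD, n = 3) in the VRTN arrays and 5.10 ± 0.11 (SD, n = 3) in the empty vector arrays, where it was dimmer than the negative control median on all 3. Of 10 markers of HEK293 cells, 8 were brighter on every array than the median negative control probe set and 2, NEFM and INA, were not, and of 11 measured markers of other cell types 7 were dimmer than it on every array and 3 (APOA1, COL1A2 and COL3A1) brighter. The HEK293 markers averaged 7.90 to 7.96 in the VRTN arrays and 7.79 to 7.81 in the empty vector arrays, and the other markers 5.02 to 5.06 and 4.95 to 5.13. Among the HEK293 markers, KRT8 (8.94 with VRTN against 7.88) and ENO2 (9.46 against 8.90) differed most. NEFL, NEFM, LHX1, VIM and CDH2 had lower means with VRTN, and INA, PAX2 and KRT18 slightly higher ones. The bacterial hybridisation spikes averaged 10.60 ± 0.10 in the VRTN arrays and 10.24 ± 0.19 in the empty vector arrays (SD, n = 3), a difference of 0.35 with no overlap (two-sided exact permutation p = 0.1, the lowest value this design allows). The part of the spikes and of the markers in the differences below was not tested.

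No gene of the 9 changed past the test, and each was brighter than the negative control median on every array. The negative controls spread widely, with 95th percentiles of 10.5 to 11.1 on the 6 arrays. Of the 9 genes, only MDM2 exceeded that percentile on any array. In limma with Benjamini-Hochberg adjustment over all 29183 probe sets, 0 of the 9 passed an adjusted p of 0.05, where 0.0137% of probe sets did. In the fit that blocks on the replicate number (replicate block), again 0 of 9 passed, against 0.0274% of probe sets. At an unadjusted p under 0.05, 4 of the 9 were lower with VRTN (MDM2, GADD45A, PMAIP1 and SESN1), against 2.92% of all probe sets, and 0 were higher, against 2.65%. With the replicate block the same 4 were lower, against 6.19%, and CDKN1A and TP53INP1 were higher, against 5.31%. Without the block, leaving out VRTN replicate 3 gave 3 lower and 2 higher, and leaving out empty vector replicate 2 gave 3 lower and 1 higher. The shares over all probe sets were not counted in these fits, so the moves are not read as a result about the 9 genes. The genes thus did not share a direction: 4 had negative and 5 positive log2 fold changes, with a median of 0.0016, against -0.0049 over all probe sets. The 95% intervals of the fit without the block, taken over all 9 genes, reached at most a 1.53-fold difference in either direction.

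**Figure D1:**
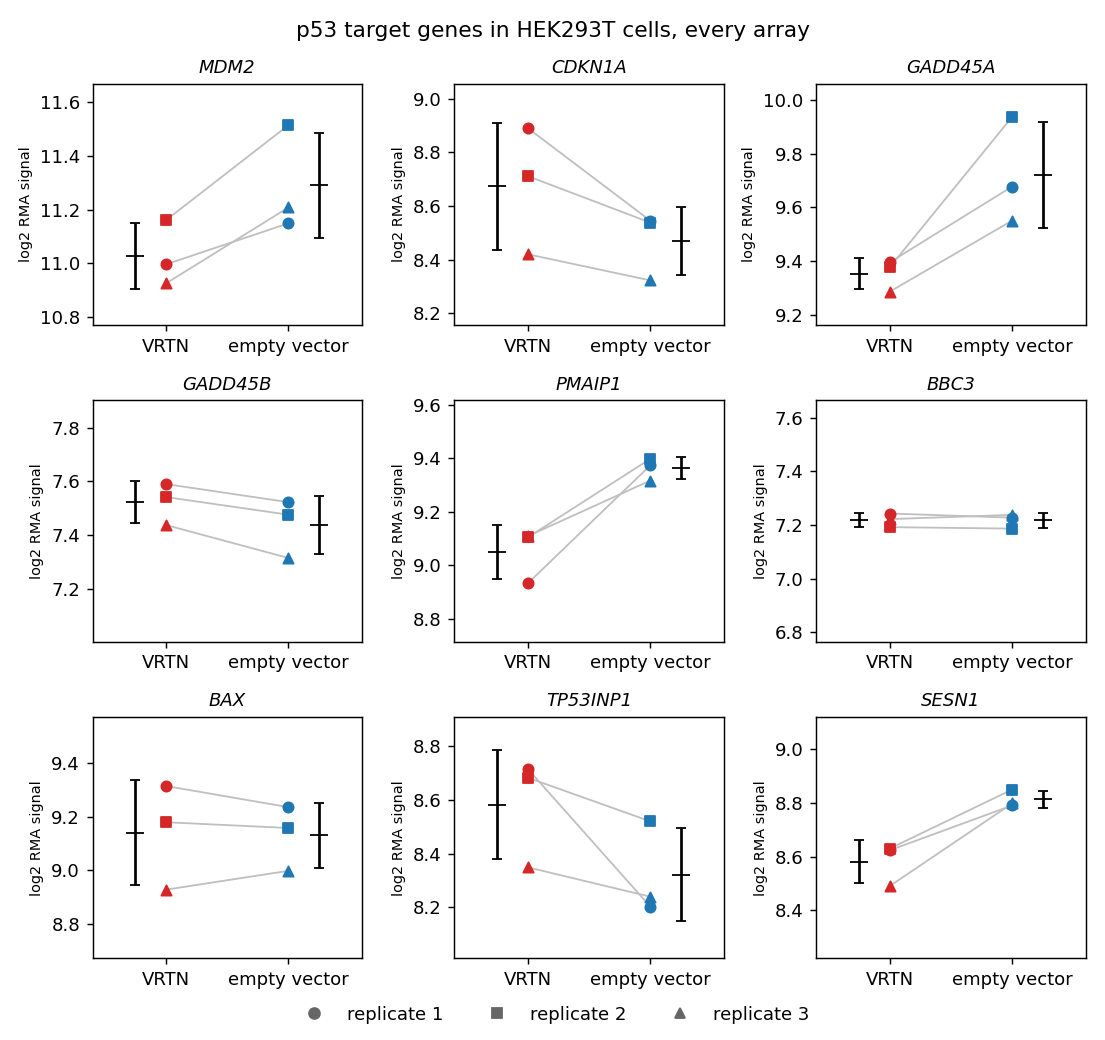
Log2 RMA signal (vertical axes, each spanning 0.9) of the 9 genes in every array, with VRTN at the left and empty vector at the right of each panel. Grey lines join arrays with the same replicate number, and black bars give the mean and SD of 3 arrays; GADD45A, PMAIP1 and SESN1 are the genes whose groups do not overlap.

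MDM2, the ubiquitin ligase that turns p53 over and is induced by it, had log2 signals of 11.00, 11.16 and 10.92 in VRTN replicates 1, 2 and 3, against 11.15, 11.51 and 11.21 in the empty vector replicates. VRTN replicate 2 lay just above empty vector replicate 1, so the groups overlapped, while within each replicate number the VRTN array was the lower one. This is a log2 fold change of -0.26 with an SE of 0.11 and a 95% interval of -0.53 to -0.0011 (limma adjusted p = 0.892, n = 3 per group). With the replicate block the interval was -0.42 to -0.11 (limma adjusted p = 0.296). Without empty vector replicate 2, the array with the highest MDM2 signal, the log2 fold change was -0.15.

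Among the genes that act on the cell cycle, CDKN1A and GADD45A lay on opposite sides of 0. CDKN1A encodes p21, the inhibitor of cyclin-dependent kinases through which p53 stops cells in G1. Its log2 signals were 8.89, 8.71 and 8.42 in the VRTN replicates, against 8.55, 8.54 and 8.32 in the empty vector replicates. The groups overlapped through VRTN replicate 3, and the VRTN array was the higher one in all 3 same-numbered pairs, by 0.34, 0.17 and 0.097. The mean difference was 0.21 with an SE of 0.13 and a 95% interval of -0.089 to 0.50 (limma adjusted p = 0.931), and the interval was 0.036 to 0.37 with the replicate block (limma adjusted p = 0.371). The difference was 0.097 without VRTN replicate 1 and 0.33 without VRTN replicate 3.

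GADD45A encodes a small protein that binds PCNA, p21 and stress kinases, and it was among the first p53 targets described. Its log2 signals were 9.40, 9.38 and 9.29 in the VRTN replicates, against 9.68, 9.94 and 9.55 in the empty vector replicates, so all 3 VRTN arrays lay below all 3 empty vector arrays. The log2 fold change of -0.37 had a 95% interval of -0.61 to -0.13 (SE 0.10; limma adjusted p = 0.715) and was the most negative of the 9. The blocked interval was -0.56 to -0.18. Leaving out empty vector replicate 2 brought the difference to -0.26. Its relative GADD45B, which is also induced by NF-kappaB and TGF-beta signalling, was at 7.59, 7.54 and 7.44 in the VRTN replicates and 7.52, 7.48 and 7.31 in the empty vector replicates, with overlapping groups and a log2 fold change of 0.085 (SE 0.082; limma adjusted p = 0.973). That difference was 0.13 on dropping replicate 3 of VRTN or replicate 1 of empty vector and 0.024 on dropping replicate 3 of empty vector, and its interval with the replicate block was -0.051 to 0.22. The third relative, GADD45G, averaged 6.11 ± 0.05 in VRTN arrays and 6.06 ± 0.06 in empty vector arrays (SD, n = 3), and it was brighter than the negative control median on 5 of the 6.

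Next come the genes of apoptosis. PMAIP1 encodes NOXA, a BH3-only protein that neutralises the survival factor MCL1. Its log2 signals were 8.93, 9.10 and 9.11 in the VRTN replicates, against 9.37, 9.40 and 9.32 in the empty vector replicates, and the groups did not overlap. On average they differed by -0.31, with a 95% interval of -0.49 to -0.14 (SE 0.075; limma adjusted p = 0.634) and the smallest unadjusted p of the 9 (0.0034). The interval with the replicate block was -0.48 to -0.15. BBC3 encodes PUMA, a BH3-only protein that binds all the survival members of the BCL2 family. It was the steadiest of the 9, at 7.24, 7.19 and 7.22 in the VRTN replicates and 7.23, 7.19 and 7.24 in the empty vector replicates, with a log2 fold change of 0.0016 (95% interval -0.14 to 0.15, and -0.13 to 0.14 with the replicate block). The difference between PMAIP1 and BBC3 was not tested.

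BAX encodes the pore-forming protein on which the BH3-only proteins act. It was at 9.31, 9.18 and 8.93 in the VRTN replicates, against 9.24, 9.16 and 8.998 in the empty vector replicates. The groups overlapped fully, and the log2 fold change of 0.010 (95% interval -0.25 to 0.27) turned negative without VRTN replicate 1 (-0.077). Its interval with the replicate block was -0.14 to 0.16. TP53INP1 encodes a protein that promotes p53 phosphorylation and autophagy. Its log2 signals were 8.72, 8.68 and 8.35 in the VRTN replicates, against 8.20, 8.52 and 8.24 in the empty vector replicates. The groups overlapped, the VRTN array was higher in each pair, and the log2 fold change of 0.26 was the most positive of the 9 (SE 0.13, 95% interval -0.031 to 0.55; limma adjusted p = 0.900). The blocked interval lay above 0, from 0.037 to 0.49 (limma adjusted p = 0.381). The pairs were uneven: replicate 1 differed by 0.51 and replicates 2 and 3 by 0.16 and 0.11.

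SESN1 encodes sestrin 1, a stress protein that restrains the growth kinase complex mTORC1. Its log2 signals were 8.62, 8.63 and 8.49 in the VRTN replicates, against 8.79, 8.85 and 8.80 in the empty vector replicates, and the groups did not overlap. The difference between the means was -0.23, with a 95% interval of -0.39 to -0.070 (SE 0.070; limma adjusted p = 0.773), or -0.38 to -0.086 with the replicate block. The other sestrins did not share one pattern. SESN3, which is driven by FOXO factors, averaged 8.85 ± 0.10 in VRTN arrays and 9.11 ± 0.14 in empty vector arrays (SD, n = 3), a log2 fold change of -0.26 with groups that did not overlap (limma adjusted p = 0.843). SESN2, a target of p53 and of ATF4, averaged 8.28 ± 0.49 in VRTN arrays and 8.16 ± 0.29 in empty vector arrays, a difference of 0.12 that is smaller than either SD (limma adjusted p = 0.994).

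**Figure D2:**
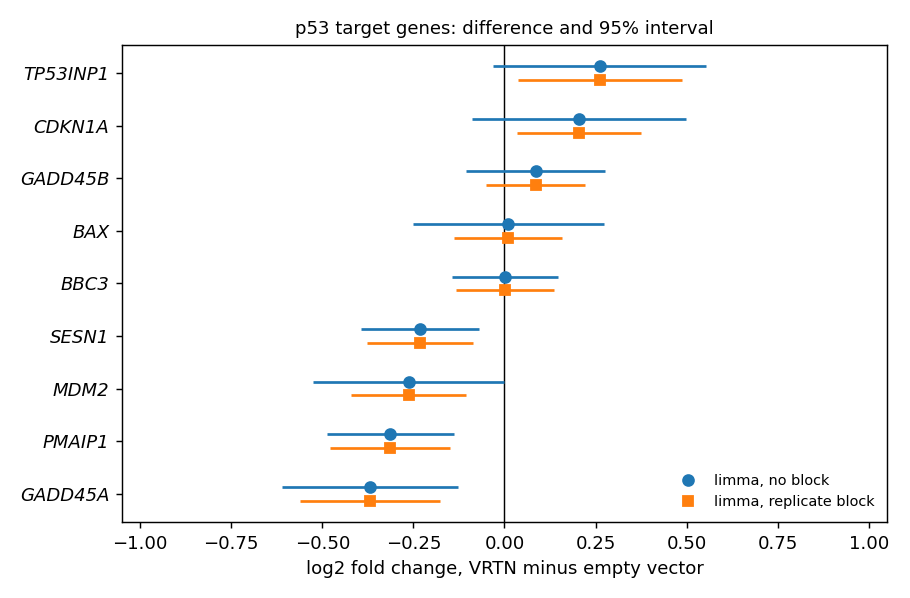
Log2 fold change (horizontal axis, VRTN minus empty vector) of the 9 genes, ordered from the most positive at the top, with 95% intervals from limma without a block (circles) and with the replicate number as a block (squares). No gene passed an adjusted p of 0.05 in either fit, and the intervals are narrower with the block for all 9.

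Groups that did not overlap were found for 3 of the 9 genes with VRTN below, against 5.92% of all probe sets, and for 0 with VRTN above, against 5.39%. Within same-numbered pairs, 4 genes were lower with VRTN in all 3 pairs, against 19.1% of probe sets, and 3 (CDKN1A, GADD45B and TP53INP1) were higher in all 3, against 15.8%. BBC3 and BAX were higher in 2 pairs and lower in 1.

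The plasmids share replicate numbers, and the order of the arrays was compared between them. In CDKN1A, GADD45B and BAX, replicate 1 was highest and replicate 3 lowest under both plasmids, an agreement of order seen in 3 of the 9 genes and in 30.8% of probe sets. With GADD45A added, replicate 3 was lowest under both plasmids in 4 of the 9 genes, against 22.0% of probe sets. CDKN1A in VRTN replicate 3 lay 0.25 below the mean of its plasmid, more than its log2 fold change of 0.21 between the plasmids. MDM2 was highest in replicate 2 under both plasmids, by 0.13 and 0.22 over the mean of the plasmid. An F test of the replicate number in limma gave an unadjusted p under 0.05 for 3 genes, BAX (0.015), CDKN1A (0.016) and MDM2 (0.022), against 20.9% of probe sets. None of the 9 passed after adjustment (BAX adjusted p = 0.144), where 1.03% of probe sets did. With a trended and robust prior 3 of the 9 passed, among 3387 of the 29183 probe sets. Without the dimmest 40 percent 2 of the 9 passed, among 2500 of the fewer probe sets left. The trended and robust prior tests the same probe sets as the main fit, and the dim filter tests fewer. The counts depend on the setting and are not read as a result about the 9 genes.

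**Figure D3:**
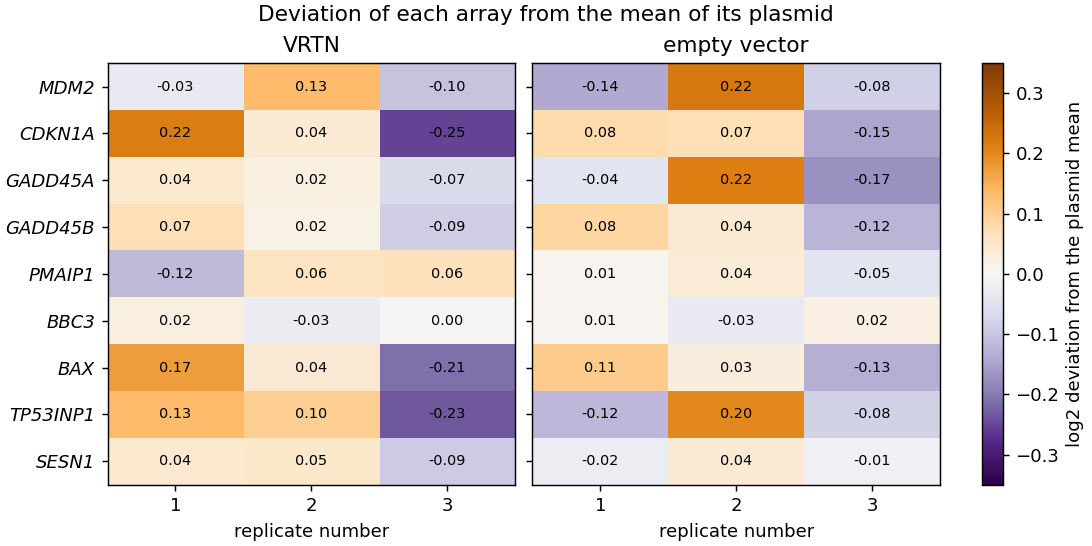
Deviation of each array from the mean of its plasmid on the log2 scale (colour and printed values), for the 9 genes (rows) by replicate number (columns), with VRTN in the left and empty vector in the right panel. CDKN1A, GADD45B and BAX are lowest in replicate 3 and MDM2 is highest in replicate 2 in both panels, and BBC3 stays within 0.031 of 0.

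MDM4, the partner of MDM2 that masks the activation domain of p53, followed the replicate number most closely of the genes around p53 named here. Its log2 signals were 9.28, 9.76 and 10.03 in the VRTN replicates, against 9.26, 9.95 and 10.03 in the empty vector replicates, with replicate 1 far below the others under both plasmids. The F test of the replicate number gave an adjusted p of 0.0396 in limma, while the log2 fold change between the plasmids was -0.056 (SE 0.24; limma adjusted p = 0.997). MDM2 did not show that order, being highest in replicate 2. PPM1D, the phosphatase that dampens p53 signalling and is itself a p53 target, averaged 10.37 ± 0.19 in VRTN arrays and 10.30 ± 0.15 in empty vector arrays (SD, n = 3).

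Over the 6 arrays, the gene patterns most like that of CDKN1A were those of SERPINB9, CPSF7 and UBE2A, with Pearson r of 0.995, 0.993 and 0.993. Those most like MDM2 were PTP4A1, DDX55 and PITPNB, with r of 0.997, 0.993 and 0.993. Of 18416 other genes, 135 exceeded an r of 0.95 with CDKN1A and 63 with MDM2. The 6 arrays share replicate numbers, and the values are given as a description.

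Regulators of p53 gave no call. Of 26 measured members of a list of 29, 0 passed in limma, at an unadjusted p under 0.05 there was 1 lower and 0 higher, against 2.92% and 2.65% of all probe sets (1 and 3 with the replicate block, against 6.19% and 5.31%), and the median log2 fold change was 0.0052. The lower one was TRIM24, a ubiquitin ligase for p53, at -0.17 (SE 0.067; limma adjusted p = 0.853). CDKN2A, whose ARF product blocks MDM2, was at -0.14 and the p53 ligase RCHY1 at -0.11, whereas DAXX, which bridges MDM2 and a deubiquitinase, was at 0.24, the p53 inhibitor PPP1R13L at 0.19 and the coactivator EP300 at 0.15. None of these passed.

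Other p53 targets lay on both sides of 0. Of 55 measured of 60 listed, 25 had positive and 30 negative log2 fold changes with a median of -0.0084, 0 passed, and at an unadjusted p under 0.05 there was 1 on each side, against 2.65% higher and 2.92% lower over all probe sets. With the replicate block 2 were higher, against 5.31%, and 5 lower, against 6.19%. SFN, which encodes 14-3-3 sigma and holds cells in G2, was at 0.27 (SE 0.095; limma adjusted p = 0.841). FBXW7, a ubiquitin ligase subunit that degrades cyclin E and NOTCH, was at -0.50 (SE 0.066; limma adjusted p = 0.238). FBXW7 averaged 7.56 ± 0.02 in VRTN arrays and 8.05 ± 0.06 in empty vector arrays (SD, n = 3), and it passed in limma only with array weights. The stress transcription factor ATF3 was at -0.24, the RNA-binding ZMAT3 at -0.22, the autophagy gene DRAM1 at 0.19 and the matrix protein THBS1 at 0.17, none past the test. THBS1 was brighter than the negative control median on 2 of the 6 arrays.

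In the BCL2 family apart from PMAIP1, BBC3 and BAX, 16 of 17 listed genes were measured, and 0 passed with or without adjustment (limma, median -0.0033). The range was -0.11 to 0.15, so PMAIP1, at -0.31, lay outside it. BCL2L1, the survival factor BCL-xL, was at 0.15, the BH3-only genes BIK and BAD at 0.14 and 0.13, and BCL2, BCL2L10 and BCL2L14 at -0.11, -0.11 and -0.073. BIK and BCL2L14 were dimmer than the negative control median on every array, and BCL2L10 was brighter than it on 2 of the 6. Among CDK inhibitors, cyclins and CDKs, 0 of 21 measured of 22 listed passed with or without adjustment (limma, median -0.026). CCND2 was at 0.16, CCNB1 at 0.096, the inhibitor CDKN2D at 0.080, CDK1 at -0.14 and CCNA2 at -0.079. Among all 9 relatives of the p53 targets by family, 0 passed. At an unadjusted p under 0.05, 1 was lower (SESN3), against 2.92% of all probe sets, and 0 were higher, against 2.65%. With the replicate block 1 was lower, against 6.19%, and 0 were higher, against 5.31%. TP53INP2 was at 0.12, the p21 relative CDKN1B at -0.040 and the BAX relative BAK1 at -0.059.

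Genes that p53 represses through p21 and the DREAM complex, which silences cell cycle genes, gave 0 calls among 33 measured of 35 listed (limma, median -0.032). At an unadjusted p under 0.05, 5 were lower, against 2.92% of all probe sets, and 1 higher, against 2.65%. In the blocked fit 6 were lower, against 6.19%, and 3 higher, against 5.31%. The lower ones included CDC25A, the phosphatase that activates CDK2, at -0.24 (SE 0.076; limma adjusted p = 0.787) and the replicative helicase subunits MCM6 (-0.19) and MCM4 (-0.18). The mitotic phosphatases CDC25B and CDC25C were at 0.19 and 0.18 and the kinase AURKA at 0.20. VRTN lay below without overlap for 8 of the 33, against 5.92% of probe sets, and above for 1, against 5.39%.

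Since PMAIP1, GADD45A and SESN2 also answer to ATF4 and CHOP, targets of those factors were set beside them. Of 18 measured, 0 passed in limma, with 1 higher and 1 lower at an unadjusted p under 0.05 and a median of -0.010. The shares over all probe sets were 2.65% and 2.92%. In the blocked fit 1 was higher, against 5.31%, and 4 lower, against 6.19%. DDIT3, which encodes CHOP, was higher without overlap, at 7.41, 7.25 and 7.35 in the VRTN replicates and 6.82, 7.13 and 7.05 in the empty vector replicates, with a log2 fold change of 0.34 (SE 0.097; limma adjusted p = 0.741). The cystine transporter gene SLC7A11 was at -0.64 (SE 0.26; limma adjusted p = 0.867) with overlapping groups. The phosphatase subunit PPP1R15A was at 0.18, CEBPB at 0.074 and ASNS at -0.18. Heat shock protein genes were the list with calls: of 18 measured of 20 listed, DNAJB1 (1.54) and HSPH1 (0.96) rose past the test, 0 fell, and the median was 0.33. Over all probe sets 0.0137% passed. HSPA1A and HSPA1B were listed but not measured. At an unadjusted p under 0.05 in limma, 10 of the 18 were higher, against 2.65% of all probe sets, and 0 lower, against 2.92%. In the blocked fit 14 were higher at that limit, against 5.31%, and 0 lower, against 6.19%. VRTN lay above without overlap for 11 of the 18, against 5.39%. With the replicate block 3 of the 18 passed, against 0.0274%, the third being SERPINH1 (1.20), named after its values were seen. The 2 calls became 1 without VRTN replicate 3, and 0 without VRTN replicate 1 or 2 or empty vector replicate 2 or 3. DNAJB4 was at -0.071. CRYAB was brighter than the negative control median on 1 of the 6 arrays, with log2 signals of 6.51, 5.82 and 5.59 in the VRTN replicates and 4.38, 4.24 and 4.59 in the empty vector replicates, and did not pass (limma adjusted p = 0.255).

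**Figure D4:**
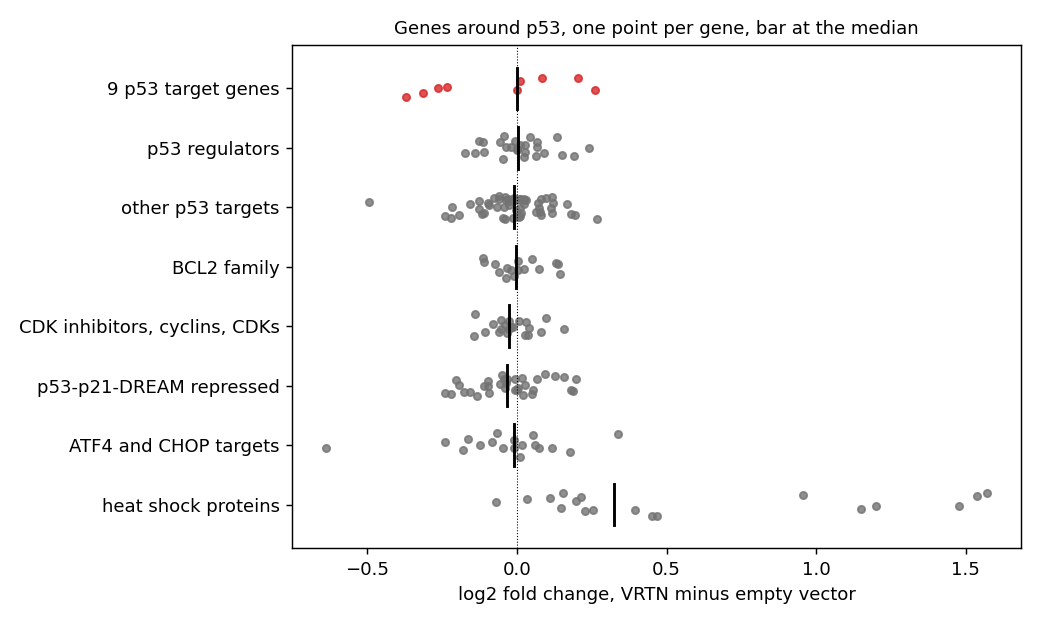
Log2 fold change (horizontal axis, VRTN minus empty vector) of each measured gene in the 9 p53 target genes and 7 of the 8 gene lists, 1 point per gene, with a bar at the median. The 9 genes lie between -0.37 and 0.26 around a median of 0.0016, and the heat shock protein genes have a median of 0.33.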

How the data were processed

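The deposited values are log2 signals that the authors made by gene-level RMA with its defaults, per the file headers. The submitters' processing notes list Affymetrix Expression Console, version 1.0. A genome build is not given in the sources used here. A second deposited table differed in 0 of 33297 probe sets. The 4114 control probe sets were left out. The platform annotation gives 1 gene symbol to 19460 of the remaining 29183, several to 1752 and none to 7971, and probe sets with several name no gene. A gene in a list was represented by its brightest probe set.

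The plasmids were compared in limma 3.58.1 under R 4.3.3 (lmFit and eBayes, two-sided, Benjamini-Hochberg over all tested probe sets, threshold 0.05), with no filter on dim probe sets. Arrays with 1 number in common moved the same way around the means of their plasmids (correlations of 0.535, 0.157 and 0.499 over the probe sets), which was read as pairing by number, and intervals or counts from the fit with the replicate block stand beside those of the 9 genes and the lists where they differ in call or count. The fit was tested on simulated data for VRTN against empty vector, with the means of these 29183 probe sets and their moderated variances from limma. Moderation draws the variances toward a common value, so the most variable probe sets were simulated with less noise than observed. There it called 81.5% of changes of 1.5-fold and 99.5% of 2-fold. The simulation had independent noise, no effect of the replicate number and a fixed set of changed probe sets. These shares therefore do not give the power in the real arrays. In those, DNAJB1 at 2.91-fold passed and CRYAB at 2.97-fold did not (limma adjusted p = 0.255). The number of arrays limits the precision.

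The genes and the 8 lists were chosen with earlier results of these data known. The rule for named genes took all 9 targets, from each list the 3 genes with the smallest p on either side, and MDM4, PPM1D, GADD45G, SESN2, SESN3 and VRTN. Promoter sequences are from RefSeq. Python 3.11.15 with pandas 2.3.3 and matplotlib 3.10.9 was used. The alternatives tried were the replicate block, each array left out in turn, the second table, median centring, a second quantile normalization, averaged probe sets, array weights, a trended and robust prior, no moderation, and dropping the dimmest 40 percent.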

Additional observations from a re-analysis of the deposited data

How the results depend on the processing

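No alternative brought any of the 9 genes past an adjusted p of 0.05 in limma, and the smallest was 0.198, for GADD45A and PMAIP1 with array weights. Over 15 alternatives for each of the 9 genes, 128 of 135 values kept their direction. The 7 that turned belonged to genes near 0, and the cause was not tested. BBC3 turned to -0.0037 after median centring of the arrays and to -0.0038 under array weights. With 1 array left out it ran from -0.014 to 0.015 and BAX from -0.077 to 0.12, BAX being negative on dropping replicate 1 (-0.077) or 2 (-0.0092) of VRTN or replicate 3 (-0.056) of empty vector, and BBC3 on dropping replicate 1 of VRTN (-0.010) or replicate 2 of empty vector (-0.014). The 4 genes lower at an unadjusted p under 0.05 became 3 after another quantile normalization, without moderation, and when VRTN replicate 1 or 3 or empty vector replicate 2 or 3 was dropped. The 0 higher became 1 after another quantile normalization, 2 with the replicate block, 2 on dropping replicate 3 of VRTN and 1 on dropping replicate 2 of empty vector. Apart from the replicate block, the shares over all probe sets at an unadjusted p were not counted under these alternatives. With 1 array left out the log2 fold change ran from -0.33 to -0.15 for MDM2, -0.45 to -0.26 for GADD45A, -0.34 to -0.26 for PMAIP1, -0.26 to -0.19 for SESN1, 0.097 to 0.33 for CDKN1A, 0.024 to 0.13 for GADD45B and 0.20 to 0.38 for TP53INP1.

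Over all probe sets, the 4 calls were 14 with array weights, 8 with the replicate block and 0 without variance moderation, and 1 to 4 with 1 array left out: 4 on dropping replicate 1 of empty vector, 2 on dropping replicate 3 of VRTN and 1 otherwise. Among heat shock protein genes, 2 calls were 4 with array weights, 3 with the replicate block, 1 after another quantile normalization, 0 without moderation and 0 to 2 with 1 array left out. Among other p53 targets, array weights gave 1 call (FBXW7). The replicate block changed no call for the 9 genes. The F test of the replicate number called 300 probe sets, 3387 with a trended and robust prior and 2500 of the fewer left without the dimmest 40 percent. The poly(A) spikes differed by -0.045 (exact permutation p = 0.7).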
